A study of Mus musculus with 19 samples.

Results

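Ligands of the tumour necrosis factor (TNF) superfamily and their receptors were followed in the infrarenal aorta of mice 7 days after elastase infusion. Members were chosen by symbol: every gene named Tnfsf or Tnfrsf with a number, and Tnf, Fas, Cd40, Cd40lg, Cd27, Cd70, Ngfr and Eda2r, where a probe set carried exactly 1 gene symbol, with the brightest probe set kept per gene. This gave 36 members, 12 ligand genes and 24 receptor genes, of 30063 genes measured. The other 4 symbols that fit the names, Cd27, Tnfsf12, Tnfsf13 and Tnfsf13os, lay on probe sets with several symbols and are not reported.

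Arrays of the Affymetrix Clariom D type (MTA 1.0) were used, with 1 mouse per array, and the mice were C57BL/6J, an inbred laboratory strain, operated on at 10 weeks of age. In both treatments the aorta was closed off temporarily, opened, and infused for 5 min at 120 mmHg. Sham mice received saline and PPE mice saline with type I porcine pancreatic elastase at 2.5 U/mL, which produces an aneurysm of the abdominal aorta. The cohorts comprised 5 male sham, 7 male PPE, 3 female sham and 4 female PPE aortae, small numbers that limit the precision. Elastase was infused from the lumen into a whole vessel segment, so RNA came from the wall with any cells that had entered it. In such bulk samples fewer cells of a type and less RNA per cell cannot be told apart.

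Array medians over all probe sets were 6.17 to 6.31 in females and 5.61 to 5.85 in males, so sex and a difference in processing between the cohorts cannot be told apart and no level is compared between them. Smooth muscle markers marked the tissue as labelled, with the sham mean of Myh11, the smooth muscle myosin heavy chain gene, at 15.87 in males and 15.42 in females. Several arrays stood apart in markers of adjoining tissue. Male sham 4 had a summed adipocyte marker level of 17.59 (log2 of the summed intensities) against at most 14.21 in the other male sham arrays. Myh4, a skeletal muscle myosin gene, read 12.91 in female sham 1, 11.32 in female PPE 2 and 9.44 in male PPE 6, and at most 5.48 in every other array. Dbh, a noradrenaline synthesis gene of sympathetic neurons, read 10.62 in female PPE 2 and 5.61 to 7.41 in the other female PPE arrays. None of the 21 members called in males lost its call without male sham 4 or without male PPE 6. Of the 4 called in females only Tnfrsf4 lost its call without female sham 1, and none without female PPE 2.

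TNF family ligands are mostly membrane proteins that act as trimers, some of them after shedding by metalloproteases. Receptors with a death domain can assemble complexes that lead to caspase activation. Many receptors, among them some with a death domain, signal through TRAF adaptors to NF-kappa B and mitogen-activated kinases. In arteries the family is known for signals between T cells and antigen-presenting cells, for the activation of endothelium and smooth muscle, and for lymphoid tissue formation in the adventitia.

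The promoters of 5 members called in males are shown here as examples of windows that hold a match to a regulatory motif, as the 250 bases before a RefSeq transcript start (RefSeq, GRCm38.p6, which is the mm10 assembly), read 5′ to 3′ on the gene's strand. They are those of Tnf (chr17:35202008-35202257, minus strand), Tnfrsf1b (chr4:145246871-145247120, minus strand), Tnfrsf14 (chr4:154928078-154928327, minus strand), Tnfrsf9 at its downstream start (chr4:150927749-150927998, plus strand) and Tnfsf11 (chr14:78308044-78308293, minus strand). Capitals mark matches on either strand to any of 5 motifs. These were the NF-kappa B consensus of 10 letters, the interferon-stimulated response element core, also of 10 letters, the gamma-activated site TTCNNNGAA, the AP-1 site TGANTCA and the TATA box TATAAA.
Tnf: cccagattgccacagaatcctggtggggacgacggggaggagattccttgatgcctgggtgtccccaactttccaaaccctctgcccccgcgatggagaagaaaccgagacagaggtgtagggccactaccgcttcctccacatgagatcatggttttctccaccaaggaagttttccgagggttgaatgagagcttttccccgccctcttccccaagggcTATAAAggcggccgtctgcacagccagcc
Tnfrsf1b: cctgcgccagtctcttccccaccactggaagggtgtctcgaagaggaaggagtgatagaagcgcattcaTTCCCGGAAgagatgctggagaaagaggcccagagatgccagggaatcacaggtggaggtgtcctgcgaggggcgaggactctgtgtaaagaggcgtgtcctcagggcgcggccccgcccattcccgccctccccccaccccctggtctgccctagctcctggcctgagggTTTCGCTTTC
Tnfrsf14: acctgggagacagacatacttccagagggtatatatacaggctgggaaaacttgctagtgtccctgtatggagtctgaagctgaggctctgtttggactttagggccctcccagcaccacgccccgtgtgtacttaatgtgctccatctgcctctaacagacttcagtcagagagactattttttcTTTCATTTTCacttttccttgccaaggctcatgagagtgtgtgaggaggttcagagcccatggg
Tnfrsf9: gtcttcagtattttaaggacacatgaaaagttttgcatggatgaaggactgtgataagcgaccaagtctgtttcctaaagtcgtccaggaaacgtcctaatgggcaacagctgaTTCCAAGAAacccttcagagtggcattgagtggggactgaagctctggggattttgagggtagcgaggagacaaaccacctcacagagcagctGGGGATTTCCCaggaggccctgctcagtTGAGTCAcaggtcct
Tnfsf11: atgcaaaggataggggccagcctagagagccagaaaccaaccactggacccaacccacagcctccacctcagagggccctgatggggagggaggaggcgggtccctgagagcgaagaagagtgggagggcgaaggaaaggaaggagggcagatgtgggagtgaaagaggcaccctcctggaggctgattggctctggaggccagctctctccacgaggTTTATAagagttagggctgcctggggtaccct
At the downstream start Tnfrsf9 held an NF-kappa B match 43 to 33 bases before its start, where 2 overlapping matches share letters, a gamma-activated site and an AP-1 site, whereas the window at its upstream start held none of the 5 motifs. In Tnfrsf14 the response element core lay 64 to 55 bases upstream, and in Tnfrsf1b 10 to 1 bases upstream with a gamma-activated site farther out. Tnf held a TATA box on the gene's strand 29 to 24 bases upstream. In Tnfsf11 the match to it, 32 to 27 bases upstream, was on the opposite strand. The Tnfrsf14 start lies, like that of Tnfrsf9, inside the span of its gene. Called members with a match that are not printed are Tnfrsf18 (gamma-activated site), Tnfsf14 (AP-1 site), Tnfrsf23 and Eda2r (TATA box). The Tnfrsf23 match was on the opposite strand, 158 to 153 bases upstream.

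Of the 36 members 27 matched a promoter window by symbol, and 15 of these 27 were called in males. The NF-kappa B consensus was found in 3 of the 27 genes (Tnfrsf8, Tnfrsf9 and Tnfrsf25) and in 8.23% of all genes with a window, and 1 of the 3 was called. The response element core was found in 4 of the 27 (Tnfrsf14, Tnfrsf17, Tnfrsf1b and Tnfsf13b) against 3.46% of all genes, and the gamma-activated site in 6 against 8.13%. The AP-1 site was present in 5 against 7.82% and the TATA box in 6 against 14.3%. A match is a description of letters in a short window and not a bound site.

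In males, 19 of the 36 members rose after PPE and 2 fell, with 15 not called. Members called higher thus made up 52.8%, beside 9.69% of all 30063 genes called higher, 9.97% lower and 19.7% in either direction in the same fit with limma at an adjusted p below 0.05. The median difference between PPE and sham was 0.38 log2 units over the members and 0.01 over all genes. The leading rises were those of Tnf (3.75-fold), Cd40 (2.6-fold), Tnfrsf1b (2.41-fold), Tnfrsf14 (2.36-fold) and Tnfrsf21 (2.04-fold). The 2 falls were Tnfrsf11b, which encodes the secreted decoy receptor osteoprotegerin (2.6-fold lower), and Eda2r, the receptor gene for ectodysplasin A2 (1.39-fold lower). Ligands had 8 of 12 members called, all higher, and receptors 11 of 24 called higher and 2 lower.

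In females, 4 of 36 members rose (11.1%, beside 2.79% of all genes) and 0 fell (beside 1.46%), with 4.25% of all genes called in either direction. These were Cd40 (2.05-fold), Tnfsf10 (2.07-fold), Tnfrsf14 (1.83-fold) and Tnfrsf4 (1.54-fold), all of which also rose in males. With these 4, 21 members had an unadjusted p below 0.05 there. The share of all genes below that unadjusted threshold was not counted, so the 21 have no background beside them. The member median was 0.30 log2 units against -0.02 for all genes. All 19 members that rose in males had a difference above 0 in females, except that Tnfrsf23 was at -0.06 there after quantile normalization.

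With other scalings of the arrays the split of all called genes moved, from 49.3% higher in males to 57.5% after quantile normalization and 60.4% with median centring, and from 65.7% higher in females to 44.0% and 69.1%. Among the members there were 21 higher and 2 lower in males after quantile normalization and 20 higher and 1 lower with median centring, and 5 and 4 higher members in females.

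**Figure D1:**
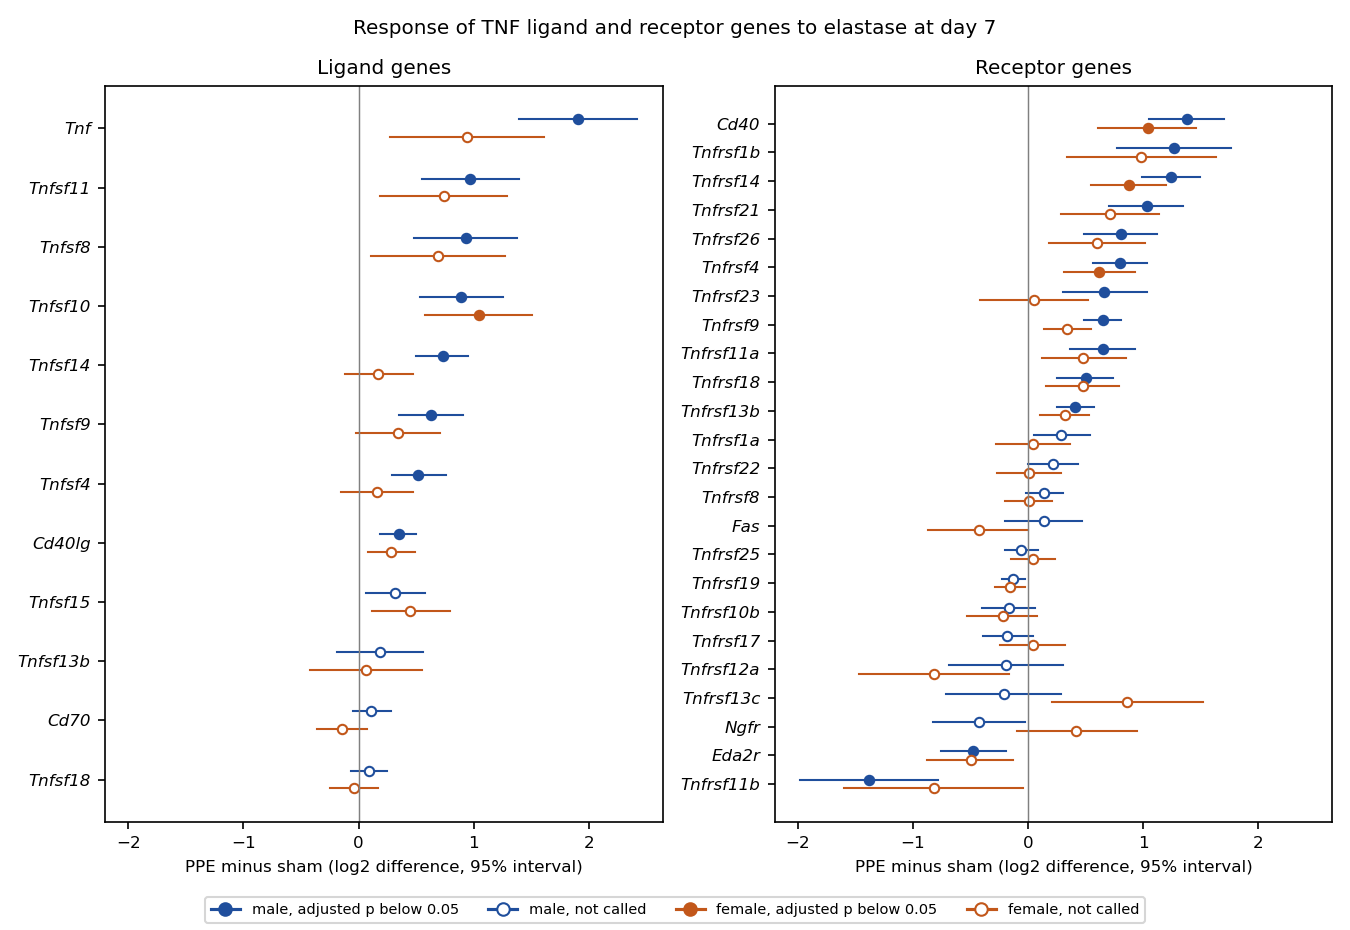
Difference between PPE and sham (log2 units, x axis) of each ligand gene (left) and receptor gene (right), with 95% intervals from the fit over all 19 arrays; blue is male and orange female, and filled points had an adjusted p below 0.05. Tnf has the largest male difference at 1.91, and Tnfrsf11b lies farthest below 0 in males at -1.38.

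Values below are log2 intensities as deposited, listed in the order of the replicate numbers, and the 7 male PPE arrays are given by their range and median. Differences are PPE minus sham on the log2 scale with the standard error of the fit.

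Tnf (mm10 chr17:35199367-35202007) encodes the founding cytokine of the family, made by macrophages and T cells. It read 6.00, 6.31, 6.67, 6.34 and 6.50 in the male sham arrays and between 7.74 and 9.15 (median 8.02) in the male PPE arrays. Every male PPE array exceeded every male sham array, and the difference was 1.91 ± 0.24 (SE, adjusted p = 1.92e-05). In the female cohort sham arrays read 7.28, 6.78 and 7.41 and female PPE arrays 8.67, 8.07, 8.16 and 7.47. Female PPE 4 lay only just above the highest sham value, and the difference of 0.94 ± 0.32 (SE, adjusted p = 0.123) was not called.

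Of the receptor genes for TNF, Tnfrsf1b rose in males and Tnfrsf1a was not called. Tnfrsf1b (mm10 chr4:145212368-145246870), which encodes the receptor without a death domain found on leukocytes and endothelium, read 10.95, 11.32, 11.34, 10.09 and 10.46 in male sham and between 11.52 and 12.50 (median 12.22) in male PPE aortae. Male sham 4 and 5 were the lowest of their group, the groups did not overlap, and Tnfrsf1b rose by 1.27 ± 0.23 (SE, adjusted p = 0.000658). Its female values were 11.35, 10.85 and 11.02 in sham and 12.35, 12.34, 12.02 and 11.52 in PPE arrays. These groups did not overlap either, but the difference of 0.98 ± 0.31 (SE, adjusted p = 0.0851) was not called.

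Tnfrsf1a (mm10 chr6:125349723-125362483) encodes the broadly expressed receptor with a death domain. Male sham arrays read 9.85, 10.05, 10.33, 9.64 and 9.98 and male PPE arrays lay between 10.01 and 10.46 (median 10.20), with overlap. The difference was 0.29 ± 0.12 (SE, adjusted p = 0.0891), with a 95% interval of 0.05 to 0.54. Sham arrays of the female cohort read 11.13, 10.63 and 10.82 and female PPE arrays 10.72, 10.97, 11.05 and 10.86, again with overlap and a difference of 0.04 (-0.28 to 0.36). The change of Tnf minus that of Tnfrsf1a within arrays was 1.61 ± 0.23 (SE) in males and 0.90 ± 0.31 in females, and against Tnfrsf1b it was 0.64 ± 0.29 and -0.05 ± 0.20.

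**Figure D2:**
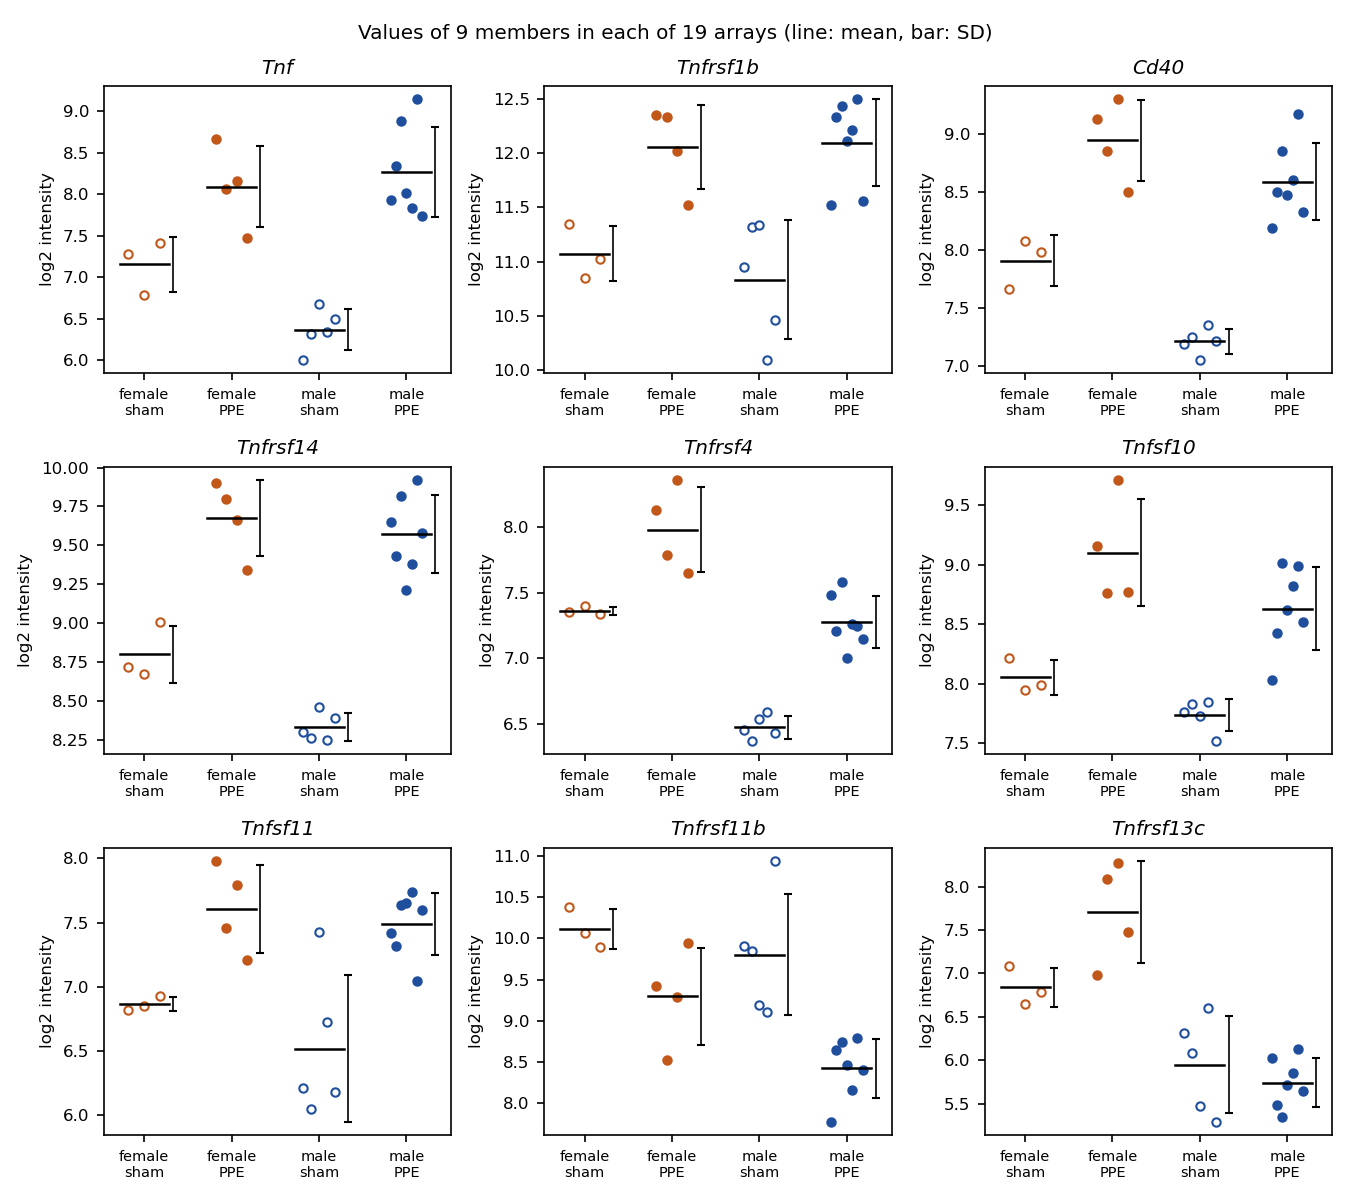
Log2 intensity (y axis) of 9 members in each array by group (x axis); open points are sham and filled points PPE, lines are means and bars SD. Tnf, Tnfrsf1b, Cd40, Tnfrsf14, Tnfrsf4 and Tnfsf10 show no overlap of PPE and sham arrays in either cohort, Tnfrsf11b is lower in every male PPE array than in any male sham array, and Tnfrsf13c overlaps in both.

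Among death ligands, Tnfsf10 (mm10 chr3:27317077-27339665), which encodes TRAIL, rose in both cohorts. It read 7.76, 7.83, 7.73, 7.85 and 7.52 in male sham and between 8.03 and 9.01 (median 8.62) in male PPE aortae, a difference of 0.89 ± 0.17 (SE, adjusted p = 0.000884). The lowest male PPE value was still above all 5 sham values. The female values were 8.22, 7.95 and 7.99 in sham and 9.16, 8.76, 9.71 and 8.77 in PPE arrays, a difference of 1.05 ± 0.22 (SE, adjusted p = 0.0115). Female PPE 3 was the highest, and the call was lost without female sham 2 (adjusted p = 0.0663).

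Of the TRAIL receptor genes only the decoy Tnfrsf23 was called higher, in males, besides the fall of Tnfrsf11b. Tnfrsf10b, the mouse death receptor gene for TRAIL, read 7.50, 7.46, 7.84, 7.85 and 8.02 in male sham and between 7.33 and 7.83 (median 7.53) in male PPE arrays, and 7.85, 7.90 and 7.58 in female sham and 7.68, 7.49, 7.46 and 7.58 in female PPE arrays. Its differences of -0.17 and -0.22 were not called (adjusted p = 0.343 and 0.555). Of the decoy receptor genes, Tnfrsf23 read 8.94, 9.24, 9.64, 8.33 and 8.67 in male sham and between 9.28 and 9.93 (median 9.61) in male PPE arrays. The groups overlapped through male sham 3, and Tnfrsf23 rose by 0.66 ± 0.17 (SE, adjusted p = 0.00947). This call was lost without male sham 4, male sham 5 and male PPE 1 together (0.36, adjusted p = 0.133).

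In females Tnfrsf23 read 9.75, 9.23 and 9.36 in sham and 9.57, 9.43, 9.65 and 9.34 in PPE arrays, a difference of 0.05. Tnfrsf22, the other decoy receptor gene, read 8.26, 8.57, 8.77, 8.25 and 8.33 in male sham and between 8.47 and 8.86 (median 8.61) in male PPE arrays. In females it read 9.53, 9.33 and 9.31 in sham and 9.23, 9.46, 9.66 and 9.25 in PPE arrays. Its groups overlapped in both cohorts, with differences of 0.22 and 0.01.

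The neighbouring Tnfrsf26, a receptor gene of the same cluster on chromosome 7 (mm10 chr7:143607685-143627845), read 8.32, 8.59, 8.65, 7.64 and 8.18 in male sham and between 8.87 and 9.38 (median 8.96) in male PPE arrays. It rose by 0.81 ± 0.15 (SE, adjusted p = 0.000763) without overlap, with male sham 4 the lowest array. Female sham arrays read 8.89, 8.62 and 8.86 and female PPE arrays 9.55, 9.49, 9.46 and 9.06, without overlap and without a call (0.60 ± 0.20 SE, adjusted p = 0.109). These 3 genes are related neighbours, and whether their probe sets share signal was not tested.

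Tnfrsf21 (mm10 chr17:43016555-43089188), the gene of death receptor 6, read 7.04, 7.40, 7.10, 7.03 and 6.62 in male sham and between 7.63 and 8.51 (median 8.13) in male PPE arrays. It rose by 1.03 ± 0.16 (SE, adjusted p = 9.65e-05), with no overlap. Its female values were 7.50, 7.27 and 7.14 in sham and 7.93, 8.45, 7.89 and 7.80 in PPE arrays, again with no overlap, at 0.71 ± 0.20 (SE, adjusted p = 0.0545). This female difference lay just outside the threshold, and it passed when dim genes were left out of the adjustment (adjusted p = 0.0383).

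Fas (mm10 chr19:34290647-34327775), the death receptor gene for the T and NK cell ligand FasL, was not called. Its brightest probe set read 10.21, 9.86, 10.70, 10.08 and 10.77 in male sham and between 10.13 and 10.68 (median 10.60) in male PPE arrays (difference 0.14, interval -0.20 to 0.47). In females it read 11.42, 11.93 and 11.72 in sham and 11.03, 11.11, 11.51 and 11.38 in PPE arrays (difference -0.43), and the groups overlapped in both cohorts. A second probe set annotated to Fas went the other way, with mean differences of -1.09 in males and 0.69 in females. Its identifier places it on chromosome 17, whereas RefSeq places Fas on chromosome 19, and which transcript it measures was not tested. 

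Fasl, outside the name rule, read 4.91, 4.95, 5.09, 5.63 and 5.15 in male sham and between 5.63 and 6.21 (median 5.79) in male PPE arrays, a rise of 0.71 ± 0.14 (SE, adjusted p = 0.00153). Male sham 4 reached the lowest PPE value. In females it read 6.23, 6.25 and 6.52 in sham and 7.22, 6.71, 6.72 and 6.41 in PPE arrays, with overlap and no call (0.43, adjusted p = 0.278). Tnfrsf25, the death receptor gene for the T cell ligand encoded by Tnfsf15, was at -0.06 and 0.04, and Tnfsf15 at 0.32 (adjusted p = 0.0769) and 0.45 (adjusted p = 0.141).

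In males the genes of RANK ligand and its receptor RANK rose and that of their soluble decoy fell. Tnfsf11 (mm10 chr14:78277446-78308043), which encodes RANK ligand, the inducer of osteoclasts, read 6.21, 6.05, 7.43, 6.73 and 6.18 in male sham and between 7.05 and 7.74 (median 7.60) in male PPE arrays. Male sham 3 lay inside the PPE range, the other 4 sham arrays below it, and the rise was 0.97 ± 0.20 (SE, adjusted p = 0.00178). The female values were 6.82, 6.85 and 6.93 in sham and 7.98, 7.46, 7.79 and 7.21 in PPE arrays. The 3 sham values lay close together and below all PPE values, but the difference of 0.74 ± 0.26 (SE, adjusted p = 0.141) was not called.

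Tnfrsf11b (mm10 chr15:54250619-54278484), the gene of osteoprotegerin, which binds RANK ligand and TRAIL, read 9.91, 9.85, 9.19, 9.11 and 10.94 in male sham and between 7.77 and 8.79 (median 8.46) in male PPE arrays. Although the sham values were widely spread, with male sham 5 the highest, all 7 PPE values lay below them, and the difference was -1.38 ± 0.28 (SE, adjusted p = 0.00174). Without each array in turn it ranged from -1.55 to -1.09 and kept its call. In the female cohort sham arrays read 10.38, 10.07 and 9.90 and female PPE arrays 9.42, 8.52, 9.29 and 9.95. Female PPE 4 fell among the sham values, and the difference of -0.82 ± 0.37 (SE, adjusted p = 0.302) was not called.

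Tnfrsf11a (mm10 chr1:105780673-105849444), the signalling receptor gene RANK, read 8.02, 8.24, 7.92, 7.66 and 7.88 in male sham and between 8.23 and 9.07 (median 8.51) in male PPE arrays. It rose by 0.65 ± 0.13 (SE, adjusted p = 0.0018), with male sham 2 just above the lowest PPE value. Sham arrays of the female cohort read 8.09, 8.23 and 8.09 and female PPE arrays 8.64, 8.93, 8.38 and 8.53, without overlap and without a call (0.48 ± 0.17 SE, adjusted p = 0.152). The change of Tnfsf11 minus that of Tnfrsf11b was 2.35 ± 0.57 in males and 1.57 ± 0.40 in females, the male value being the largest among the 23 measured pairs. That of Tnfsf11 minus Tnfrsf11a was 0.32 ± 0.35 and 0.26 ± 0.23.

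Among genes of T cell help and costimulation, Cd40, Tnfrsf4 and Tnfrsf9 rose in males together with the genes of their ligands. These ligand genes read low. Tnfsf4 and Tnfsf9 were each below the median of all probe sets in 13 of 19 arrays, among them every sham and every female array. Cd40 (mm10 chr2:165055614-165071654), a receptor gene of B cells, macrophages and dendritic cells, read 7.19, 7.25, 7.05, 7.35 and 7.21 in male sham and between 8.19 and 9.17 (median 8.50) in male PPE arrays. Every PPE value lay above every sham value, and the rise was 1.38 ± 0.15 (SE, adjusted p = 5.5e-06). In females it read 7.66, 8.08 and 7.98 in sham and 9.13, 8.85, 9.30 and 8.50 in PPE arrays, a rise of 1.04 ± 0.20 (SE, adjusted p = 0.00748). This call held in all 19 fits that left out 1 array, with a highest adjusted p of 0.0488.

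Cd40lg, its T cell ligand gene, was dim, below the median of all probe sets in all 19 arrays. It read 4.41, 4.19, 4.18, 4.25 and 4.30 in male sham and between 4.52 and 4.74 (median 4.59) in male PPE arrays, a rise of 0.35 ± 0.07 (SE, adjusted p = 0.00254) with no overlap. Female sham arrays read 4.69, 4.91 and 5.03 and female PPE arrays 5.28, 4.99, 5.33 and 5.04, with overlap and no call (0.28, adjusted p = 0.13).

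Tnfrsf4 (mm10 chr4:156013595-156016613), which encodes OX40 of activated T cells, read 6.45, 6.37, 6.54, 6.59 and 6.43 in male sham and between 7.00 and 7.58 (median 7.25) in male PPE arrays, a rise of 0.80 ± 0.11 (SE, adjusted p = 4.53e-05). Female sham arrays were tightly grouped at 7.35, 7.40 and 7.34, and female PPE arrays read 8.13, 7.79, 8.36 and 7.65, a rise of 0.62 ± 0.15 (SE, adjusted p = 0.0209). No groups overlapped, but the female call was lost without any 1 of female sham 1, 2 or 3 or female PPE 1 or 3 (adjusted p up to 0.0805). Tnfsf4, the gene of its ligand, read 5.58, 5.19, 5.31, 5.51 and 5.38 in male sham and between 5.41 and 6.17 (median 6.01) in male PPE arrays. It rose by 0.52 ± 0.11 (SE, adjusted p = 0.00232), with male PPE 1 among the sham values.

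In females Tnfsf4 read 5.72, 5.77 and 5.91 in sham and 6.14, 5.83, 5.89 and 5.99 in PPE arrays, with overlap and a difference of 0.16. Tnfrsf9, the gene of the T cell receptor CD137, read 5.48, 5.33, 5.68, 5.64 and 5.45 in male sham and between 6.08 and 6.29 (median 6.16) in male PPE arrays. The groups did not overlap, and the rise was 0.65 ± 0.07 (SE, adjusted p = 6.82e-06). In the female cohort sham arrays read 6.18, 6.24 and 6.39 and female PPE arrays 6.62, 6.48, 6.83 and 6.52, without overlap, at 0.34 ± 0.10 (SE, adjusted p = 0.0548). Tnfrsf9 passed there after quantile normalization (adjusted p = 0.0379). Its ligand gene Tnfsf9 read 4.82, 5.43, 5.58, 5.29 and 5.45 in male sham and between 5.65 and 6.19 (median 5.91) in male PPE arrays, a rise of 0.63 ± 0.13 (SE, adjusted p = 0.00213) without overlap. Female values were 5.53, 5.24 and 5.66 in sham and 6.13, 5.90, 5.75 and 5.50 in PPE arrays, with overlap and no call (0.34).

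Tnfsf8, the gene of CD30 ligand, read 5.29, 5.71, 6.13, 5.58 and 5.91 in male sham and between 6.01 and 7.22 (median 6.62) in male PPE arrays. Male sham 3 lay above the lowest PPE value, and the rise was 0.93 ± 0.21 (SE, adjusted p = 0.00374). Sham arrays of the female cohort read 6.36, 6.53 and 6.07 and female PPE arrays 6.90, 6.66, 7.61 and 6.88, with female PPE 3 the highest, no overlap and no call (0.69 ± 0.28 SE, adjusted p = 0.212). The CD30 receptor gene Tnfrsf8 read 5.83, 5.60, 5.71, 5.77 and 5.88 in male sham and between 5.77 and 6.11 (median 5.84) in male PPE arrays. It was not called at 0.14 (adjusted p = 0.224) but passed after quantile normalization (0.20, adjusted p = 0.0165) and median centring (0.19, adjusted p = 0.0281). Its female values were 6.37, 6.45 and 6.52 in sham and 6.43, 6.35, 6.60 and 6.44 in PPE arrays, a difference of 0.01.

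Tnfrsf18, which encodes GITR, a receptor of regulatory and activated T cells and a neighbour of Tnfrsf4 on chromosome 4, read 6.64, 6.64, 6.59, 6.26 and 6.08 in male sham and between 6.81 and 7.27 (median 6.87) in male PPE arrays. It rose by 0.50 ± 0.12 (SE, adjusted p = 0.00435) without overlap, but lost the call without male sham 4, male sham 5 and male PPE 1 together (0.32, adjusted p = 0.0715). The female values were 7.31, 7.25 and 7.51 in sham and 8.08, 7.61, 7.96 and 7.68 in PPE arrays, without overlap or call (0.48 ± 0.15 SE, adjusted p = 0.0918). The gene of its ligand, Tnfsf18, was below the median of all probe sets in all 19 arrays. Male sham values were 5.25, 5.11, 5.29, 5.44 and 5.50 and male PPE values lay between 5.24 and 5.51 (median 5.42). Female values were 5.93, 6.15 and 5.75 in sham and 5.93, 5.93, 5.94 and 5.81 in PPE arrays, and neither difference (0.09 and -0.04) was called. Cd70, another costimulatory ligand gene, was dim as well, with differences of 0.11 and -0.14.

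Of the lymphotoxin and LIGHT branch, which organises lymphoid tissue, Tnfrsf14 (mm10 chr4:154918487-154928620) had the lowest p of all members in males. This gene of the herpesvirus entry mediator read 8.30, 8.26, 8.46, 8.25 and 8.39 in male sham and between 9.21 and 9.92 (median 9.58) in male PPE arrays, a rise of 1.24 ± 0.12 (SE, adjusted p = 1.54e-06). Female sham arrays read 8.72, 8.67 and 9.01 and female PPE arrays 9.90, 9.80, 9.66 and 9.34, a rise of 0.88 ± 0.15 (SE, adjusted p = 0.00476). There was no overlap in either cohort, and both calls held in all 19 fits that left out 1 array.

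Tnfsf14, the LIGHT ligand gene, read 6.43, 6.67, 6.87, 6.47 and 6.44 in male sham and between 7.00 and 7.61 (median 7.28) in male PPE arrays. It rose by 0.73 ± 0.11 (SE, adjusted p = 7.08e-05) without overlap. In the female cohort sham arrays read 7.48, 7.70 and 7.79 and female PPE arrays 7.76, 7.69, 8.10 and 7.77, with overlap and a difference of 0.17 (-0.12 to 0.47). The receptor gene Ltbr, shared by LIGHT and lymphotoxin beta and outside the name rule, read 9.09, 9.17, 9.55, 8.97 and 9.33 in male sham and between 9.17 and 9.57 (median 9.26) in male PPE arrays. In females it read 9.54, 9.14 and 9.20 in sham and 9.56, 9.46, 9.59 and 9.55 in PPE arrays, and its differences of 0.09 and 0.25 were not called. 

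Ltb, the lymphotoxin beta gene, read 6.97, 6.90, 6.78, 7.69 and 6.75 in male sham and between 7.81 and 8.56 (median 8.08) in male PPE arrays, a rise of 1.12 ± 0.17 (SE, adjusted p = 9.54e-05). Female sham arrays read 8.12, 8.49 and 8.89 and female PPE arrays 9.36, 9.48, 9.74 and 9.26, a rise of 0.96 ± 0.22 (SE, adjusted p = 0.0179). The groups overlapped in neither cohort. Lta, below the median of all probe sets in all 19 arrays, was at 0.24 and 0.07.

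Of the B cell survival branch, Tnfsf13b, which encodes BAFF, read 8.85, 8.87, 9.37, 8.37 and 8.75 in male sham and between 8.44 and 9.38 (median 9.04) in male PPE arrays. Its female values were 9.73, 10.01 and 10.28 in sham and 10.33, 9.84, 10.33 and 9.78 in PPE arrays. Groups overlapped in both cohorts, with differences of 0.19 (-0.19 to 0.56) and 0.06 (-0.42 to 0.55). Tnfrsf13b, the gene of TACI, a receptor of B cells and macrophages, read 7.68, 7.63, 7.36, 7.36 and 7.34 in male sham and between 7.82 and 8.09 (median 7.84) in male PPE arrays, a small rise of 0.41 ± 0.08 (SE, adjusted p = 0.000766) without overlap. Female values were 8.04, 8.22 and 8.35 in sham and 8.46, 8.52, 8.64 and 8.46 in PPE arrays, without overlap or call (0.32 ± 0.10 SE, adjusted p = 0.0948).

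Tnfrsf13c, the BAFF receptor gene of B cells, read 7.09, 6.65 and 6.79 in female sham and 6.98, 8.09, 8.27 and 7.48 in female PPE arrays. Female PPE 2 and 3 were the highest and female PPE 1 lay within the sham range, and the difference of 0.86 ± 0.31 (SE, adjusted p = 0.15) was not called. In males it read 6.31, 6.08, 5.47, 6.60 and 5.29 in sham and between 5.35 and 6.13 (median 5.71) in PPE arrays, a difference of -0.21. Ms4a1, which encodes the B cell antigen CD20, was also highest in female PPE 2 and 3, at 9.85 and 10.42 against 8.47 and 8.50 in female PPE 1 and 4. It was highest among male sham arrays in male sham 4, at 7.84, the array with the highest Tnfrsf13c of that group. Of 10 measured B and plasma cell markers 2 rose in females (Ms4a1 and Cd79b) and 0 were called in males, with list medians of 1.04 and -0.08 log2 units. Their summed level, to which Xbp1, a gene that other cell types also express, contributed most with 12.45 to 13.10 in the female arrays, lay between 13.12 and 13.29 in female sham and 12.85 and 13.55 in female PPE arrays, and between 11.63 and 12.12 and between 11.89 and 12.38 in the male groups. The part of B cells in the Tnfrsf13c values was not tested. Tnfrsf17, the plasma cell receptor gene BCMA, was below the median of all probe sets in all 19 arrays, at -0.18 and 0.04.

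Genes of the remaining receptors, which act mainly in stromal, epithelial and neural cells, included the second fall. Eda2r (mm10 chrX:97333837-97377234) read 8.07, 8.15, 7.78, 7.49 and 7.84 in male sham and between 6.99 and 7.77 (median 7.32) in male PPE arrays. The groups overlapped, the difference was -0.48 ± 0.14 (SE, adjusted p = 0.0186), and the call was lost without male sham 1 or male sham 2 (adjusted p up to 0.0595) and with median centring (adjusted p = 0.0848). Sham arrays of the female cohort read 8.45, 8.10 and 7.99 and female PPE arrays 7.82, 7.67, 7.41 and 7.81, without overlap, but -0.50 ± 0.18 (SE, adjusted p = 0.143) was not called.

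Eda, which encodes its ligand and lies outside the name rule, read 6.02, 6.07, 5.95, 5.85 and 5.87 in male sham and between 5.66 and 5.89 (median 5.79) in male PPE arrays. It fell slightly, with a difference of -0.17 ± 0.06 (SE, adjusted p = 0.0399) and overlap. The female values were 6.57, 6.60 and 6.62 in sham and 6.39, 6.41, 6.55 and 6.45 in PPE arrays, at -0.15 without a call. Tnfrsf12a, the receptor gene of the repair cytokine TWEAK, averaged 9.22 in female sham and 8.40 in female PPE arrays. The female groups did not overlap, but the difference of -0.82 ± 0.31 (SE, adjusted p = 0.178) was not called, and that in males was -0.19. The female fall passed when the female arrays were fitted alone (adjusted p = 0.0146) and without male sham 5 (adjusted p = 0.0375). Ngfr, the neurotrophin receptor gene of nerves and perivascular cells, was at -0.43 in males and 0.42 in females. Schwann cell and nerve markers summed to 8.97 to 9.06 in female sham and 8.80 to 11.40 in female PPE arrays. The upper end was female PPE 2, where Dbh read 10.62, and Ngfr was highest in female PPE 4 (7.57). In males the markers summed to 8.47 to 9.25 in sham and 8.40 to 9.44 in PPE arrays. Of 5 measured markers 0 were called in either cohort, and their part in the Ngfr values was not tested. Tnfrsf19, an orphan receptor gene of epithelial and neural progenitors, was at -0.13 and -0.16. None of these 3 was called in either cohort.

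Counted by overlap alone, 15 members were higher in every male PPE array than in any male sham array (beside 4.70% of all genes) and 1 was lower (beside 4.67%). In females 14 were higher (beside 11.0%) and 4 lower (beside 8.86%). Female groups with fewer arrays separate more easily, so the female background is the larger.

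Pairs of ligand and receptor were set side by side, with 23 of 28 listed pairs measured on both sides. In males both sides were called in the same direction in 8 pairs, among them Tnf with Tnfrsf1b, Cd40lg with Cd40 and Tnfsf9 with Tnfrsf9. In Eda with Eda2r, also among the 8, both sides fell. Both sides were called in opposite directions in 2 pairs, Tnfrsf11b with each of its ligands Tnfsf11 and Tnfsf10. Only the ligand was called in 7 pairs, including Tnf with Tnfrsf1a and Tnfsf10 with Tnfrsf10b, only the receptor in 2 and neither in 4. In females both sides were called in 0 pairs, only the ligand in 5, only the receptor in 3 and neither in 15. Pairs share members, so these counts are not independent, and no test was made on them.

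Ligand and receptor changes were also subtracted within arrays. Cd40lg had a smaller difference than Cd40, with a ligand minus receptor change of -1.03 ± 0.13 (SE) in males and -0.76 ± 0.13 in females. Tnfsf14 had a smaller difference than Tnfrsf14, at -0.51 ± 0.13 and -0.70 ± 0.18. For Tnfsf9 and Tnfrsf9 it was -0.02 ± 0.16 and 0.00 ± 0.18. Tnfsf10 exceeded Tnfrsf10b by 1.06 ± 0.21 and 1.27 ± 0.27, and exceeded Tnfrsf11b by 2.27 ± 0.39 and 1.87 ± 0.37. Probe sets can differ in how far their log intensities follow the RNA, which was not tested.

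**Figure D3:**
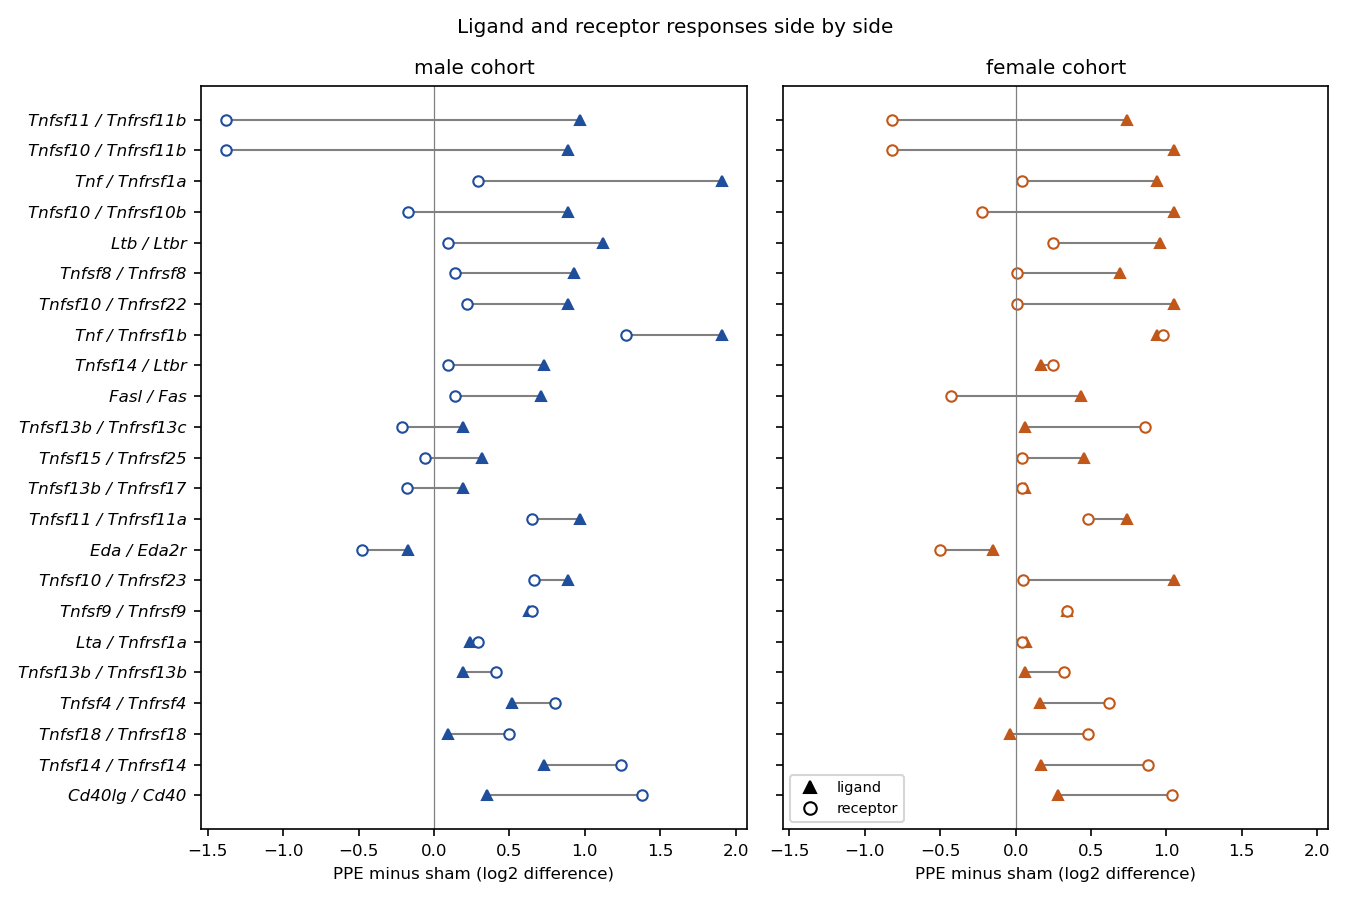
Difference between PPE and sham (log2 units, x axis) of the ligand (triangle) and the receptor (circle) of each of 23 pairs in the male (left) and female (right) cohort, ordered by ligand minus receptor in males. The widest male pair is Tnfsf11 with Tnfrsf11b, at 0.97 and -1.38, and at the other end Cd40 at 1.38 exceeds Cd40lg at 0.35.

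The male response was set against the female response as a difference between their contrasts in the same fit. None of the 36 members was called (0, beside 0.542% of all genes by limma), and the lowest adjusted p was 0.20. An unadjusted p below 0.05 was found for 7, and the share of all genes below it was not counted. These 7 were Tnfsf14 (male minus female 0.55, 95% interval 0.19 to 0.92), Tnf (0.97, 0.13 to 1.81), Tnfrsf23 (0.61, 0.02 to 1.21), Fas (0.57, 0.02 to 1.12), Tnfrsf9 (0.31, 0.05 to 0.56), Ngfr (-0.85, -1.52 to -0.19) and Tnfrsf13c (-1.07, -1.89 to -0.25). With weights for array quality 2 members passed, Ngfr (-1.10, adjusted p = 0.0332) and Tnfsf14 (0.54, adjusted p = 0.0441).

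Cd40, called in both cohorts, differed between them by 0.34 (-0.20 to 0.87), and Tnfsf10 by -0.15 (-0.74 to 0.44). The member median of the male minus female difference was 0.19 against 0.03 over all genes. Of the 36 members 24 were above 0 in both cohorts, 5 below 0 in both and 7 of opposite sign. Of the 19 members that rose in males 18 had the smaller difference in females, Tnfsf10 being the exception. Those 19 were picked by their male call, which favours larger male estimates, so this count cannot compare the cohorts. Sex and the processing of the cohorts cannot be told apart in these differences.

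**Figure D4:**
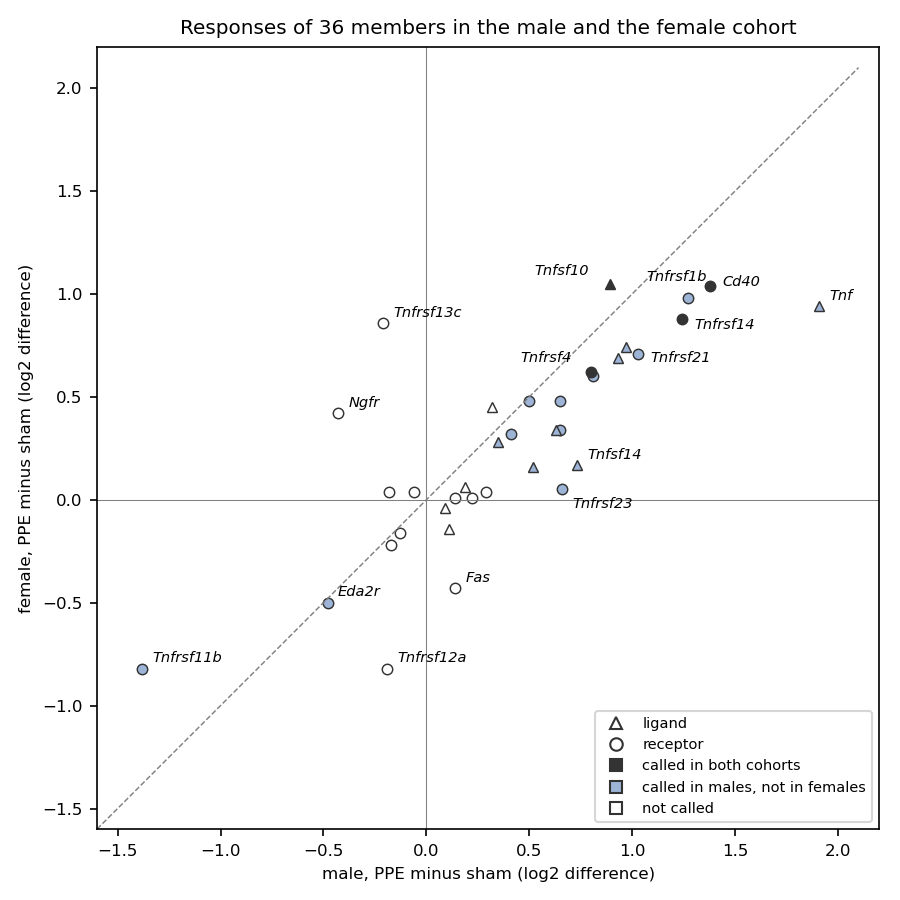
PPE minus sham (log2 difference) in males (x axis) against females (y axis) for the 36 members; triangles are ligands and circles receptors, the dashed line marks equal responses, and fill shows in which cohorts a member was called. Tnf lies below the line at 1.91 in males and 0.94 in females, whereas Tnfrsf13c and Ngfr lie in the upper left quadrant.

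Downstream genes were taken from lists of the pathway, and their counts stand beside 9.69% of all genes called higher and 9.97% lower in males, and 2.79% higher and 1.46% lower in females. Of 19 measured adaptors and proximal signalling genes 10 rose and 1 fell in males, and 5 rose and 0 fell in females. The list median was 0.30 log2 units in males and 0.27 in females, against 0.01 and -0.02 over all genes. Traf1, an adaptor gene that NF-kappa B itself induces, rose by 1.38 ± 0.13 (SE, adjusted p = 1.39e-06) and 1.01 ± 0.17 (SE, adjusted p = 0.00343) in males and females. Birc3, which encodes a ubiquitin ligase of TNF receptor complexes, rose by 1.01 (adjusted p = 3.04e-05) and 0.94 (adjusted p = 0.00638). Madd, whose product binds the death domain of the Tnfrsf1a receptor, rose by 0.93 and 0.77. The caspase gene Casp8 rose in males (0.86, adjusted p = 0.000705), as did the kinase gene Map3k14 (0.41), and in females both were not called (0.25 and 0.27).

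Of 14 genes of ubiquitin editing and regulation of the pathway 11 were called higher and 0 lower in males. In females 6 were higher and 0 lower, and the medians were 0.40 and 0.46. It was not a list of brakes alone, as it held Rnf31, Sharpin and Tbk1, called higher in males, and Rbck1, not called. Tnfaip3, the gene of the ubiquitin-editing enzyme A20, rose by 1.32 ± 0.13 (SE, adjusted p = 1.88e-06) in males and 0.97 ± 0.17 (SE, adjusted p = 0.00419) in females. Nfkbia and Nfkbie, genes of inhibitors that hold NF-kappa B in the cytoplasm, rose by 1.09 and 1.24 in males and by 1.03 and 1.16 in females, all 4 called. Tank and Tnip1, which encode regulators of the same kinases and of A20, rose by 0.97 and 0.69 in males and 0.79 and 0.59 in females.

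Of 8 genes of ligand shedding 3 rose and 2 fell in males, and 0 were called in females, with medians of 0.16 and 0.12. Adam17, the gene of the protease that releases TNF from the membrane, rose by 0.75 ± 0.15 (SE, adjusted p = 0.00129), and Rhbdf2, which encodes a partner needed for its transport in leukocytes, by 0.64 (adjusted p = 0.000519). The related Rhbdf1 fell (-0.54, adjusted p = 0.0134), as did Timp3, the gene of an inhibitor of this protease (-0.47, adjusted p = 0.0332). Among 8 genes named for induction by TNF, or for likeness to such a gene, 4 rose in males and 1 in females. The female one was Tnfaip3, which is also in the ubiquitin editing list. In males Tnfaip2 was at 1.07, and Tnfaip8l2, named for likeness to Tnfaip8, at 1.33. Of 9 measured partner genes outside the name rule 4 rose and 1 fell in males (Ltb, Relt, Fasl and Pglyrp1 higher, Eda lower), and 2 rose in females (Ltb and Relt). The medians of these last lists were 0.36 and 0.24 in males and 0.22 and 0.25 in females.

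Most lists of leukocyte markers rose as well. Not so the B and plasma cell markers in males (0 of 10 called) and the mast cell markers, with medians of 0.05 and -0.65 in males and females. All marker counts stand beside 9.69% of all genes called higher and 9.97% lower in males. In females these shares were 2.79% and 1.46%. Of 13 measured T and NK cell markers 13 rose in males and 10 in females, with Cd3e at 2.08 and 1.72 and Cd3d at 1.16 and 0.82. Their summed level lay between 10.11 and 10.24 in male sham and 11.70 and 12.58 in male PPE arrays, and between 11.12 and 11.59 and between 12.43 and 13.11 in the female groups. Monocyte and macrophage markers rose in 12 of 14 genes in males and 1 of 14 in females, with Cd68 at 1.65 and 0.86 and Adgre1 at 2.12 and 0.80. Their summed level was 17.86 to 19.24 in male sham and 19.41 to 20.14 in male PPE arrays, and 18.47 to 18.59 and 18.89 to 19.43 in the female groups. Lyz2, with male means of 17.8 in sham and 18.96 in PPE arrays, and Ly6c2 contributed most to this sum.

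Neutrophil markers rose in 8 of 11 genes in males and 5 of 11 in females (S100a8 2.93 and 3.68, S100a9 2.87 and 3.31), with summed levels of 10.48 to 12.16 and 12.97 to 13.99 in male sham and PPE arrays and 10.42 to 10.81 and 12.37 to 13.45 in females. Dendritic cell markers rose in 7 of 8 and 3 of 8 (Flt3 1.23 and 0.77, Itgax 0.89 and 0.73), with 10.50 to 11.14 and 11.52 to 11.94 in males and 11.76 to 11.92 and 12.37 to 12.68 in females. Smooth muscle markers fell in 8 of 8 genes in males and 6 of 8 in females, with Myh11 at -2.90 and -1.65 and Acta2 at -0.74 and -0.84. Their summed level lay between 18.61 and 19.24 in male sham and 17.62 and 18.36 in male PPE arrays, and between 18.67 and 19.09 and between 17.74 and 18.23 in the female groups. Acta2, with male means of 18.58 in sham and 17.84 in PPE arrays, contributed most to this sum. 

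Endothelial markers fell in 5 of 7 genes in males and 0 were called in females, with medians of -0.50 and -0.29 (Pecam1 -0.48 and -0.29, Cdh5 -0.07 and 0.16). Their summed level was 14.44 to 14.67 in male sham and 13.95 to 14.55 in male PPE arrays, and 14.55 to 15.04 and 14.60 to 14.85 in the female groups. Of 7 fibroblast markers 4 fell and 1 rose in males, and 2 fell and 1 rose in females, with medians of -0.43 and -0.46. Of 7 mast cell markers 1 rose in males and 0 were called in females, where the summed level was 12.34 to 14.50 in sham and 10.86 to 13.40 in PPE arrays. The part of these cell types in the rises and falls of the family members was not tested.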

How the data were processed

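Total RNA of 19 infrarenal aortae, 1 mouse each, was measured on Clariom D (MTA 1.0) arrays. The deposited values are log2 intensities per probe set, made by the authors with Transcriptome Analysis Console on mm10, per the submitters' processing notes; its version and how probes were summarised and background-corrected were not stated in the labels read here. Of 65956 probe sets 30604 carried 1 gene symbol, 2146 several and 33206 none in the platform annotation, and 1135 symbols were updated through RefSeq. The brightest probe set was kept for each of 30063 genes. Group means of all 19 arrays were fitted with limma 3.58.1 in R 4.3.3 (15 residual degrees of freedom), with contrasts for PPE minus sham in males and in females and for their difference. P-values were adjusted by Benjamini-Hochberg over all genes, and an adjusted p below 0.05 is a call. The procedure was tested on simulated data. Of added changes of 0.5 log2 units it called 58.2% in males and 46.3% in females, and of changes of 1 log2 unit 88.1% and 80.6%. Small changes can thus be missed. Of the unchanged genes 4 were called in males and 15 in females. Far fewer genes were changed in the simulation than were called in the data, and noise was drawn independently for each gene. These shares may therefore differ in the data.

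Arrays were grouped by the labels, 1 array per mouse, so p-values measure the spread between these mice. Alternatives covered scaling, dim genes, probe sets, the variance model, array weights, a replicate block, the groups fitted, a 2-fold minimum and each array left out. Arrays are named by value where a member was called, for Tnf, and for both sides of most pairs with a called side. Other members are given by means or differences, pathway lists by counts and up to 6 genes of lowest male p, and marker lists by counts, summed level and mostly their first measured genes. Male sham 4, 5 and PPE 1 were left out together because they stood apart in earlier results. The Ms4a1 and Tnfrsf13c array values and Cd79b were added after their values were seen. Members and lists were chosen with earlier results of these data known. Dim means below the array median in all arrays, and the alternative without dim genes kept genes above it in at least 3 arrays. A summed marker level is the log2 of the summed intensities. RefSeq promoter windows (GRCm38.p6) numbered 32851.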

Additional observations from a re-analysis of the deposited data

Results flagged for a closer look

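In 3 of 108 sets of one member in one group (2.78%) a single array lay far from the others by Dixon's criterion, which chance meets in about 1 of 20 sets. Cd70 read 4.23 in male PPE 3 and between 3.73 and 3.89 in the other male PPE arrays. Tnfrsf25 read 6.82 in female PPE 3 and between 6.62 and 6.65 in the other female PPE arrays. Tnfsf18 read 5.81 in female PPE 4 and between 5.93 and 5.94 in the others. None of these 3 genes was called in either cohort.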

How the results depend on the processing

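Over single members in both cohorts, 2038 values under alternatives kept their direction and side of the threshold, 59 passed it newly and 16 no longer passed it. Leaving out an array of 1 sex cannot change the difference in the other sex, only its p-value. The 2038 thus include values whose direction was fixed in advance. The other 39 values changed sign while called under neither setting, and 0 did so while called. After quantile normalization, over all arrays or within each sex, these were Tnfrsf25 in males (0.01) and Tnfrsf1a (-0.08), Tnfrsf22 (-0.10), Tnfrsf23 (-0.06) and Tnfsf13b (-0.04) in females, and within each sex also Tnfrsf8 in females (0.00). With the mean of probe sets Fas was at -0.48 in males and 0.13 in females. Array weights gave Tnfrsf12a 0.09 and Tnfrsf25 0.03 in males, and Tnfrsf17 -0.11, Tnfrsf25 -0.01, Tnfrsf8 0.00 and Tnfsf13b -0.01 in females. Without male sham 4, male sham 5 and male PPE 1 the male values were Tnfrsf10b 0.00, Tnfrsf12a 0.14 and Tnfrsf25 0.02. With each array left out in turn the female range was -0.17 to 0.20 for Tnfrsf17, -0.07 to 0.17 for Tnfrsf1a, -0.08 to 0.08 for Tnfrsf22, -0.06 to 0.20 for Tnfrsf23, 0.00 to 0.10 for Tnfrsf25, -0.04 to 0.05 for Tnfrsf8, -0.07 to 0.20 for Tnfsf13b and -0.14 to 0.06 for Tnfsf18, and the male range -0.33 to 0.09 for Tnfrsf12a.

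Of the 21 male calls 20 held in every fit with 1 array left out, and of the 4 female calls 2 (Cd40 and Tnfrsf14). Leaving out each array in turn gave 4949 to 6350 genes called in males (5911 with all arrays), 368 to 1614 in females (1277) and 0 to 425 for male minus female (163). Members called ranged from 19 to 21 higher and 1 to 3 lower in males, 2 to 7 higher and 0 to 1 lower in females, and 0 to 0 for the difference.

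Median centring gave 274 genes for the difference and 1 lower member in males, and leaving out dim genes 261 genes for the difference. Array weights gave 919 genes and 2 members for the difference, 3955 genes, 14 higher and 4 lower members in females, and 4 lower members in males. Fitting only the groups compared gave 1970 genes, 7 higher and 1 lower members in females and no value for the difference. Newly passing in that female fit were Tnfrsf12a (lower), Tnfrsf1b, Tnfrsf21, Tnfrsf26 and Tnfsf11 (higher), while Tnfrsf4 was lost. Without male sham 4, male sham 5 and male PPE 1 there were 79 genes for the difference and 2451 genes, 9 higher and 1 lower members in females. A 2-fold minimum left 498 genes and 2 higher members in females, and 1212 genes, 5 higher and 1 lower members in males, because smaller changes are left out by its construction. For the others the cause was not tested.

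With the replicate number as a block there were 0 genes for the difference, 639 in females, 3525 in males and 1 lower member in males, with 17 higher. Same-numbered arrays did not deviate together (correlations from -0.223 to 0.242 in females and -0.321 to 0.195 in males), so the numbers were not taken to pair the mice. The block's member calls that changed were Cd40lg, Eda2r and Tnfsf4 lost in males, Tnfrsf4 lost (adjusted p = 0.0534) and Tnf gained in females.

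Precision is limited by 3 female sham arrays, and 4 members (Cd40lg, Cd70, Tnfrsf17 and Tnfsf18) were below the array median in all arrays.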
